A study of Mus musculus with 12 samples.

Results

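Ciliated cell and axoneme genes, a list of 46 genes of the motile cilium and of the airway cells that carry it, were examined in liver and lung of mice kept on a diet low or adequate in Se. The list was drawn up by gene function, with earlier results of these data known. A gene was represented by a probe set annotated to that gene alone and, where it had several, by the one with the highest mean lung signal. In all, 42 of the 46 genes had such a probe set, of 13710 genes that had one in the whole table. Zmynd10, Efhc2, Lrriq1 and Stoml3 had none and their signals were not analysed here.

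Male FVB/N mice had been given, from weaning, a torula yeast diet deficient in Se with 0 ppm (0 Se) or 0.1 ppm (0.1 Se) Se added as sodium selenite for 6 weeks. All animals were wild type, and the 0.1 Se diet was the Se-adequate one. Total RNA of whole liver and whole lung was hybridized to Affymetrix mouse genome arrays, 3 arrays for each diet in each tissue and 12 in all. The labels number the 3 arrays of a group, and the study describes them as coming from 3 mice per diet. Values were log2 signals of the MAS5 algorithm, from which absent calls had been left out. No listed signal lay under 100 (log2 6.64), so a blank marks an absent call or a low signal. Lung arrays held 22197 to 22718 listed probe sets each and liver arrays 17235 to 17923, and correlations between lung arrays ran from 0.9763 to 0.9865.

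Motile cilia are built on an axoneme, a ring of microtubule doublets around a central pair. Outer and inner dynein arms on the doublets drive the beat, radial spokes and the nexin-dynein regulatory complex coordinate it, and tektins and other inner proteins stiffen the doublets. In lung such cilia are carried by the multiciliated cells of the airway lining, which clear mucus, and their genes are switched on by the transcription factors Foxj1 and the Rfx family. Liver has no such airway lining, and its bile duct cells carry a single non-motile cilium.

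The label of the list was first checked by detection. Of the 42 genes, 26 were listed on the 6 lung arrays, 15 on 1 to 5 lung arrays and 1 on none. Among the 26, 24 were listed on no liver array, against 16.4% of all probe sets that were listed on the 6 lung arrays. The other two were each listed on 1 liver array, where the log2 signal was 6.88 for Rfx3 and 7.30 for Ak7. Drc1 was listed on 1 liver array at 6.64, the lowest value of the table. In all, 38 of the 42 genes were listed on no liver array.

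The probe set of 1 gene ran the other way. Ropn1l encodes a ropporin-like protein of the radial spoke stalk, and its probe set was listed on no lung array and on the 6 liver arrays. Whether it measured Ropn1l RNA in liver could not be checked here. Its liver log2 signals were 9.82, 9.83 and 9.96 on the 0 Se arrays and 9.90, 9.82 and 10.003 on the 0.1 Se arrays. The diets overlapped, and the log2 difference between them was 0.04 ± 0.12 (SE, limma adjusted p = 0.974, n = 3 per diet). A second probe set of Ropn1l was blank in lung too and was listed on 4 liver arrays, at 7.05 to 7.54. Ropn1l was the only gene of the list tested in liver, and no gene of the list had enough values in both tissues for a test of lung against liver response.

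The number of genes listed per lung array differed between diets. It was 41, 39 and 40 of 42 on the 0 Se arrays and 37, 27 and 34 on the 0.1 Se arrays. Each 0.1 Se array listed fewer of these genes than each 0 Se array, and replicate 2 of 0.1 Se listed the fewest. All 15 genes listed on some lung arrays were on more 0 Se than 0.1 Se arrays, against 42.2% of the 5069 probe sets listed on 1 to 5 lung arrays. On replicate 2 of 0.1 Se the total of listed probe sets was also the lowest of the lung arrays, at 22197.

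**Figure D1:**
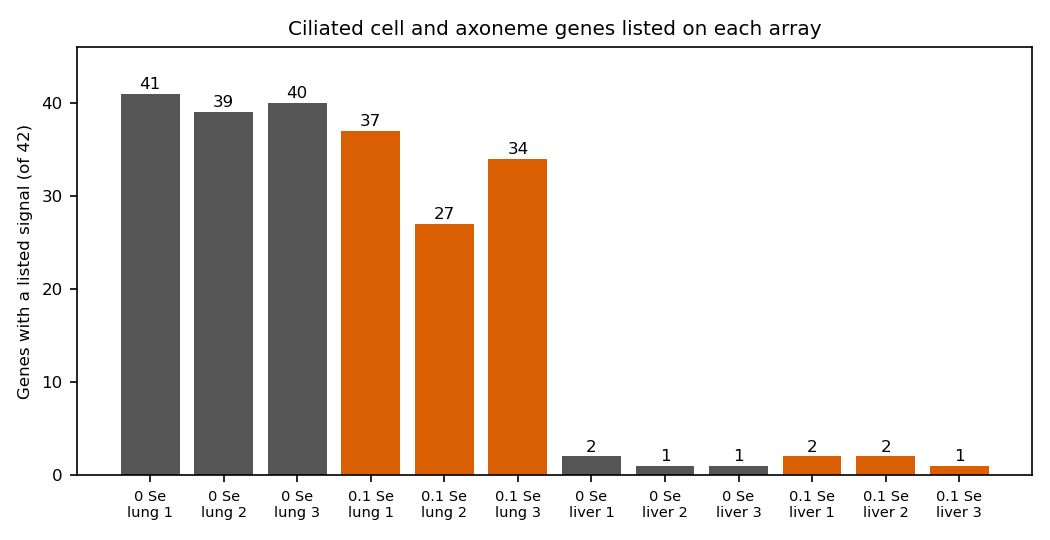
Bars give the number of ciliated cell and axoneme genes with a listed signal on each of the 12 arrays, of 42 with a probe set; the axis starts at 0, grey is 0 Se and orange 0.1 Se. Lung arrays listed 39 to 41 genes in 0 Se and 27 to 37 in 0.1 Se, and liver arrays 1 or 2.

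Ciliated cell and axoneme genes had lower signals in 0.1 Se than in 0 Se lung, by a median log2 difference of -0.53 over the 35 genes with at least 2 values in each diet, and 1 of them passed the test across all probe sets. That gene, Fam216b, fell 2.27-fold. All 35 differences lay below 0, from -1.18 to -0.06, where 52.1% of the 21655 probe sets tested lay below 0 and their median was -0.01. The single call compares with 0.0924% of all probe sets at an adjusted p under 0.05. At an unadjusted p under 0.05, 22 of the 35 genes (62.9%) were lower in 0.1 Se, against 4.12% of all probe sets. None of the 35 was higher at that threshold, where 3.55% of all probe sets were. In whole lung, fewer ciliated cells and less RNA of these genes per cell cannot be told apart.

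**Figure D2:**
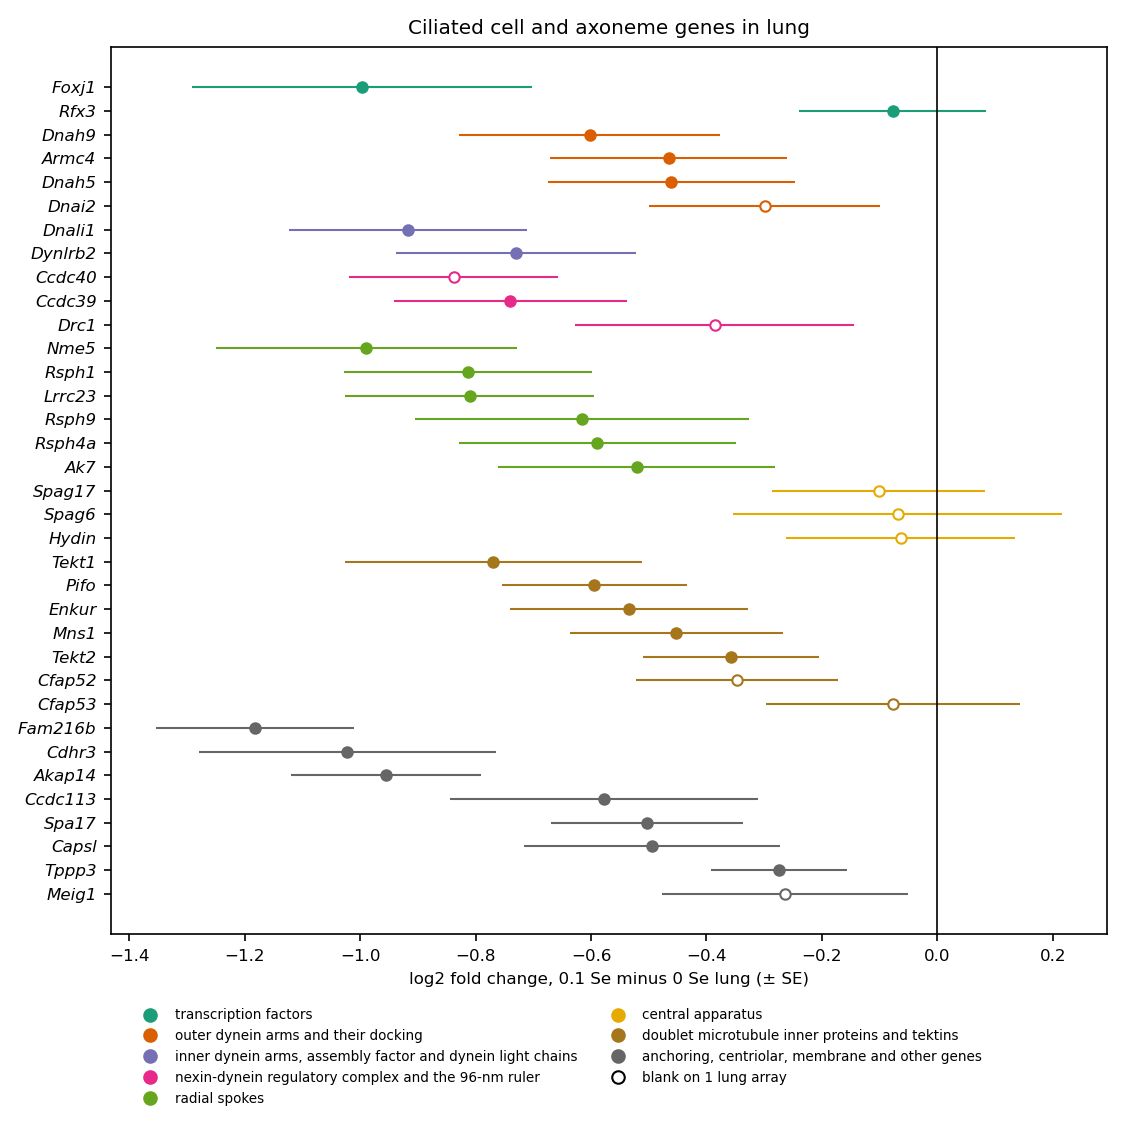
Points give the log2 fold change (0.1 Se minus 0 Se lung) of each of the 35 genes tested, bars its SE, and colours the gene's role; open points are genes blank on 1 lung array. All points lie left of 0, Fam216b farthest at -1.18, while Rfx3, Cfap53 and the central apparatus genes lie between -0.10 and -0.06 with bars that cross 0.

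Of the 26 genes listed on the 6 lung arrays, 14 had their 3 signals in 0.1 Se below their 3 signals in 0 Se, against 6.86% of all probe sets so listed. These were Dnah9, Dnali1, Dynlrb2, Ccdc39, Rsph1, Nme5, Lrrc23, Tekt2, Enkur, Pifo, Fam216b, Akap14, Spa17 and Cdhr3. For the other 12 at least 1 array of 0.1 Se reached into the range of 0 Se. Fam216b, Akap14, Dnali1 and Ccdc40 had been listed by the study from these same arrays, so their direction is not independent evidence. Without them, 31 genes were tested, 18 of these were lower at an unadjusted p under 0.05, and the median was -0.50. These 31 were measured on the same arrays and were also chosen with earlier results known, so they are not independent evidence either.

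Fam216b and Akap14 had the smallest p-values. Log2 signals of Fam216b were 9.56, 9.48 and 9.66 on the 0 Se arrays (replicates 1 to 3) and 8.67, 8.004 and 8.48 on the 0.1 Se arrays. Every 0.1 Se array lay below every 0 Se array, with replicate 2 lowest. The log2 difference was -1.18 ± 0.17 (SE, adjusted p = 0.0443 by limma, n = 3 per diet). The call was lost in 11 of 19 alternative settings, among them the fits without replicate 2 of 0.1 Se (-0.99, adjusted p = 0.121), without replicate 3 of 0.1 Se (-1.23, adjusted p = 0.0808) and without any 1 of the 0 Se arrays (adjusted p 0.0941 to 0.184).

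Akap14, a protein kinase A anchoring protein found in cilia, had log2 signals of 8.30, 8.20 and 8.22 in 0 Se and 7.48, 7.05 and 7.34 in 0.1 Se. The diets stood well apart, since the 0 Se signals differed from each other by less than the gap between the groups. Its log2 difference was -0.95 ± 0.16 (limma adjusted p = 0.0818) and missed the threshold. It passed when arrays were weighted by their quality (adjusted p = 0.0353) and without replicate 1 of 0.1 Se (-1.05, adjusted p = 0.0451).

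The transcription factors did not share 1 pattern. Foxj1, the master regulator of motile cilium genes, had log2 signals of 8.71, 8.54 and 9.45 in 0 Se and 8.55, 7.54 and 7.62 in 0.1 Se. Replicates 2 and 3 of 0.1 Se lay about 1 log2 unit below the lowest 0 Se array, while replicate 1 overlapped the 0 Se range. The difference was -0.997 ± 0.29 (limma adjusted p = 0.403). Rfx3, which binds the promoters of many cilium genes and is also expressed outside multiciliated cells, had 8.66, 8.74 and 8.53 in 0 Se and 8.62, 8.80 and 8.28 in 0.1 Se. Here the highest array was replicate 2 of 0.1 Se, the array that was lowest for most of the other genes, and the difference was -0.08 ± 0.16 (limma adjusted p = 0.945). Rfx2, a close relative, was listed only on replicate 1 of 0 Se at 6.81 and was not tested.

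Rfx factors bind the X-box, a palindromic site, and forkhead factors such as Foxj1 a core TGTTTAC. RefSeq promoter windows (GRCm38.p6, 250 bases before to 50 after the start of a gene) were given for 39 of the 46 genes and searched on both strands. An X-box lay in 8 of the 39 windows (20.5%), against 474 of the 27025 windows of all genes (1.75%). In the other lists described below it lay in 18 of 116 windows of other motile cilium genes (15.5%) and 5 of 43 of intraflagellar transport and general ciliogenesis genes (11.6%). It lay in 1 of 16 windows of multiciliated cell programme genes (6.25%) and 0 of 14 of club and secretory genes. The half-site GTTGCCAT lay in 4 (10.3%, against 1.54%), those of Iqcg, Lrrc23, Tekt1 and Lrriq1, and it can overlap an X-box. The forkhead core lay in 3 (7.69%, against 4.05%), those of Ak7, Akap14 and Stoml3. Among other motile cilium genes the half-site lay in 10.3% of windows and the forkhead core in 8.62%. A match describes the letters in a window and is not a binding site, and a window without one says nothing of the factor.

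The X-boxes of the 7 genes that also had a probe set follow, to show the letters that matched and the bases around them. The windows were picked for the match, so their likeness at the site was set by the search. Each line gives the strand of the gene 5′ to 3′ with the X-box in capitals, from RefSeq with GRCm38.p6 coordinates.
Dnai1 (chr4:41569763-41569793, plus strand): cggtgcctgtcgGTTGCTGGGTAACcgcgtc
Dnai2 (chr11:114727374-114727410, plus strand): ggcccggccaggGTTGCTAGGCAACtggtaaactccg
Dynlrb2 (chr8:116504952-116504988, plus strand): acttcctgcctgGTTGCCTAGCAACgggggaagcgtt
Hydin (chr8:110266944-110266976, plus strand): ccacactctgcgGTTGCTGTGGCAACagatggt
Lrrc23 (chr6:124779867-124779903, minus strand): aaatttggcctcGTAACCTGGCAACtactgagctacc
Spag16 (chr1:69826855-69826892, plus strand): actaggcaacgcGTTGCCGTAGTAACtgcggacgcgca
Tekt2 (chr4:126325693-126325729, minus strand): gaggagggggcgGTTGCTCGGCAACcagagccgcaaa

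The eighth X-box was that of Lrriq1. In Dnai1, Dnai2, Dynlrb2, Hydin and Tekt2 the site ended 6 to 38 bases before the start of the gene, in Spag16 89 bases and in Lrrc23 151 bases before it. Of these 7 genes 5 were tested in lung, and all 5 lay below 0, as did all 35 tested genes of the list. The log2 difference was -0.81 for Lrrc23, -0.73 for Dynlrb2, -0.36 for Tekt2, -0.30 for Dnai2 and -0.06 for Hydin, and none of these passed the limma test after adjustment. The fits of Dnai2 and Hydin left out replicate 2 of 0.1 Se, which was blank, and with blanks at the lowest value of the table they gave -0.64 and -0.24. Dnai1 was listed on the 3 arrays of 0 Se and on none of 0.1 Se, and Spag16 on 3 arrays of 0 Se and 1 of 0.1 Se, so these were not tested.

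Among the outer dynein arm genes, 4 of 6 were tested and 2 were lower at an unadjusted p under 0.05, with a median log2 difference of -0.46. Dnah9, an outer arm heavy chain, had log2 signals of 8.29, 8.20 and 8.64 in 0 Se and 8.08, 7.27 and 7.96 in 0.1 Se. The diets did not overlap, but replicate 1 of 0.1 Se lay close to the 0 Se arrays (-0.60 ± 0.23, limma adjusted p = 0.542). Dnah5, the other outer arm heavy chain tested, differed by -0.46 ± 0.21 (adjusted p = 0.662) and Armc4, which helps to dock the arms, by -0.47 ± 0.20 (adjusted p = 0.64). For the intermediate chain Dnai2 the difference was -0.30 ± 0.20 (adjusted p = 0.801) from 2 arrays of 0.1 Se.

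Dnah11 and Dnai1 had no values in 0.1 Se lung. Dnah11, a heavy chain of the outer arms, had log2 signals of 7.96, 7.95 and 7.81 in 0 Se and was blank on the 3 arrays of 0.1 Se. With blanks set to the lowest value of the table, 6.64, its log2 difference was -1.26. The 3 filled values were the same number and hold no replicate spread, so no SE or p is given. The true signal behind the blanks is unknown. Signals of Dnai1, an intermediate chain, were 7.18, 6.75 and 7.25 in 0 Se, nearer to that lowest value, and its difference set in this way was -0.42. They came from a probe set ending in _x_at. A second probe set of Dnai1 was listed only on replicate 3 of 0 Se lung, at 6.71.

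Both dynein genes outside the outer arms had lower signals at an unadjusted p under 0.05. Dnali1, a light intermediate chain of the inner arms, had log2 signals of 8.06, 7.98 and 8.49 in 0 Se and 7.62, 7.10 and 7.06 in 0.1 Se, with no overlap. The difference was -0.92 ± 0.21 (limma adjusted p = 0.218). A second probe set of Dnali1, blank on replicate 2 of 0.1 Se, gave -0.88 ± 0.19 (adjusted p = 0.216). Dynlrb2, a roadblock light chain of dynein, had 11.41, 11.36 and 11.56 in 0 Se and 11.24, 10.18 and 10.74 in 0.1 Se. Its replicate 1 of 0.1 Se lay just under the lowest 0 Se array and replicate 2 more than 1 log2 unit under it (-0.73 ± 0.21, adjusted p = 0.38).

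Ccdc39 and Ccdc40 together form the molecular ruler that spaces inner arms and regulatory complexes along the doublet. Log2 signals of Ccdc39 were 9.04, 9.02 and 9.29 in 0 Se and 8.47, 7.91 and 8.75 in 0.1 Se, again without overlap (-0.74 ± 0.20, limma adjusted p = 0.354). Those of Ccdc40 were 7.88, 7.75 and 8.03 in 0 Se and 7.09 and 7.002 in 0.1 Se, where replicate 2 was blank and left out of the fit (-0.84 ± 0.18, adjusted p = 0.218). Both members of the ruler had the same direction, as did all 35 tested genes of the list. The sizes for Ccdc39 and Ccdc40 come from different arrays, and without replicate 2 of 0.1 Se the difference of Ccdc39 was -0.51. Drc1 of the nexin-dynein regulatory complex differed by -0.39 ± 0.24 (adjusted p = 0.782) with replicate 3 of 0.1 Se blank. Iqcg of the same complex was listed at 7.02, 6.67 and 7.38 in 0 Se and on no 0.1 Se array, and was not tested.

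The radial spoke genes were measured on the 6 lung arrays in 6 of 7 cases, with a median log2 difference of -0.71 and 4 lower at an unadjusted p under 0.05. Nme5, a spoke protein of the nucleoside diphosphate kinase family, had log2 signals of 9.73, 9.35 and 9.56 in 0 Se and 9.21, 7.95 and 8.51 in 0.1 Se. Rsph1, a component of the spoke head, had 10.21, 9.83 and 10.003 in 0 Se and 9.64, 8.66 and 9.31 in 0.1 Se. In Lrrc23, a leucine-rich repeat protein of the spokes, the values were 9.29, 9.42 and 9.46 in 0 Se and 8.87, 7.999 and 8.87 in 0.1 Se. In each of these genes replicate 2 of 0.1 Se was the lowest array and the diets did not overlap. The differences were -0.99 ± 0.26 for Nme5, -0.81 ± 0.21 for Rsph1 and -0.81 ± 0.22 for Lrrc23 (limma adjusted p 0.327, 0.327 and 0.329).

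Ak7, an adenylate kinase of the axoneme grouped here with the spokes, had 10.07, 9.79 and 10.13 in 0 Se and 10.14, 9.02 and 9.27 in 0.1 Se. Replicate 1 of 0.1 Se was the highest of the 6 arrays and the other two the lowest (-0.52 ± 0.24, limma adjusted p = 0.657). Without that array the difference was -0.85 and passed the threshold (adjusted p = 0.043). The remaining spoke head genes Rsph9 and Rsph4a differed by -0.62 ± 0.29 (adjusted p = 0.671) and -0.59 ± 0.24 (adjusted p = 0.594).

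Of the 4 central apparatus genes none was listed on the 6 lung arrays and 3 were tested. None of these was lower at an unadjusted p under 0.05, and their median log2 difference was -0.07. Spag6, a protein of the central pair, had log2 signals of 7.88, 7.79 and 7.65 in 0 Se and 8.24 and 7.17 in 0.1 Se, where replicate 2 was blank. One of the 0.1 Se arrays was the highest of the 5 and the other the lowest (-0.07 ± 0.28, limma adjusted p = 0.972). Spag17, a scaffold of the central apparatus, differed by -0.10 ± 0.18 (adjusted p = 0.934) and Hydin, a very large protein of the same structure, by -0.06 ± 0.20 (adjusted p = 0.963). Both fits left out replicate 2 of 0.1 Se, which was blank. Spag16 had 8.09, 7.89 and 7.76 in 0 Se and a single 0.1 Se value of 7.56, on replicate 1. With blanks at the lowest value of the table its difference was -0.96. The filled values were the same number and hold no replicate spread, so no SE or p is given.

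The blanks bear on how these values read. In 8 genes (Ccdc40, Cfap52, Dnai2, Meig1, Spag17, Cfap53, Hydin and Spag6) the only blank lung array was replicate 2 of 0.1 Se, which was the lowest array for most genes with complete values. Their median log2 difference without that array was -0.18. It was -0.53, from -0.97 to -0.24, when the blank was set to the lowest value of the table, a fill that can only lower a difference. The 26 genes with complete values had a median of -0.60, and of -0.35 once replicate 2 of 0.1 Se was left out. Spag6 (-0.07), Hydin (-0.06) and Cfap53 (-0.08) were measured without the array in which most other genes were lowest. Their differences were also smaller than that median of -0.35, which leaves out the same array. The part of the blanks in these smaller differences was not tested.

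Doublet inner proteins and tektins were tested in 7 cases of 8, with a median log2 difference of -0.45 and 5 lower at an unadjusted p under 0.05. Pifo, a protein found at the base of cilia, had log2 signals of 9.88, 9.64 and 9.72 in 0 Se and 9.51, 8.86 and 9.09 in 0.1 Se, with no overlap (-0.59 ± 0.16, limma adjusted p = 0.342). Tekt1, a tektin filament protein, had 8.34, 7.62 and 8.18 in 0 Se and 7.79, 6.88 and 7.15 in 0.1 Se. Its replicate 1 of 0.1 Se lay above replicate 2 of 0 Se, so the diets overlapped (-0.77 ± 0.26, adjusted p = 0.466). Enkur, Mns1 and Tekt2 differed by -0.53 ± 0.21, -0.45 ± 0.18 and -0.36 ± 0.15 (adjusted p 0.559, 0.594 and 0.62). Cfap52 (-0.35) and Cfap53 (-0.08) were measured without replicate 2 of 0.1 Se. Tekt4 was listed at 7.99 and 8.03 on 2 arrays of 0 Se and at 7.71 on 1 array of 0.1 Se, and was not tested.

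The group of anchoring, membrane and other genes, which holds Fam216b and Akap14, had 8 genes tested, 6 of them lower at an unadjusted p under 0.05, and a median log2 difference of -0.54. Cdhr3, a cadherin-related protein on the surface of ciliated cells, had log2 signals of 8.77, 8.45 and 8.72 in 0 Se and 8.30, 7.30 and 7.28 in 0.1 Se. Replicates 2 and 3 of 0.1 Se were more than 1 log2 unit below every 0 Se array and replicate 1 only just below them (-1.02 ± 0.26, limma adjusted p = 0.301). Without replicate 1 of 0.1 Se the difference was -1.36 (adjusted p = 0.0165). Spa17, a sperm surface protein also found in motile cilia, had 9.11, 9.11 and 9.04 in 0 Se and 8.90, 8.26 and 8.60 in 0.1 Se (-0.50 ± 0.17, adjusted p = 0.46).

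Tppp3, a tubulin polymerization promoting protein, is abundant in ciliated cells and expressed in other cells too. Log2 signals were 12.37, 12.42 and 12.53 in 0 Se and 12.41, 11.93 and 12.16 in 0.1 Se. One 0.1 Se array lay within the 0 Se range, and the difference of -0.27 ± 0.12 (limma adjusted p = 0.632) was among the smaller ones of the genes with complete values. Capsl, a calcyphosine-like protein, differed by -0.49 ± 0.22 (adjusted p = 0.649), Ccdc113, a coiled-coil protein of cilia, by -0.58 ± 0.27 (adjusted p = 0.657) and Meig1 by -0.26 ± 0.21 (adjusted p = 0.839), the last without replicate 2 of 0.1 Se.

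**Figure D3:**
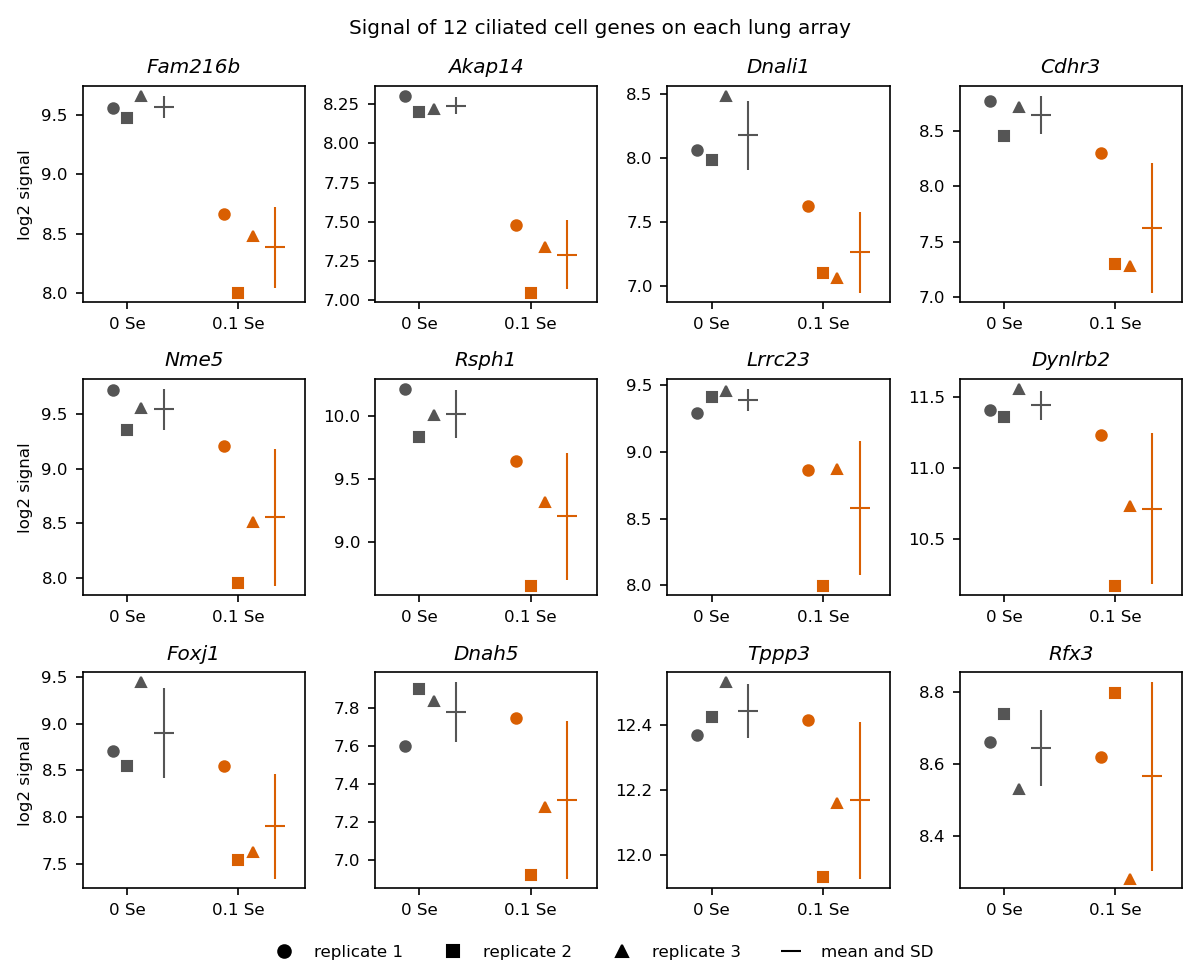
Log2 signals of 12 genes on each lung array are plotted by diet (grey 0 Se, orange 0.1 Se) with a symbol for each replicate and the mean and SD beside them; each panel has its own axis, which does not start at 0. In Fam216b the 0.1 Se arrays (8.004 to 8.67) lie under the 0 Se arrays (9.48 to 9.66), in Tppp3 and Rfx3 the diets overlap, and replicate 2 of 0.1 Se (square) is the lowest point in most panels but the highest in Rfx3.

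The arrays of 0.1 Se differed among themselves more than those of 0 Se did, with median levels of -0.75 to 0.09 against 0.20 to 0.43 (log2 signal minus the mean of a gene over the 6 lung arrays). Over the 26 genes with complete values, the signal minus the 0 Se mean of the gene had a median of -0.24 on replicate 1 of 0.1 Se, -1.12 on replicate 2 and -0.53 on replicate 3. On replicate 1, 24 of 26 genes lay below the 0 Se mean and 15 below each of the 0 Se arrays. On replicates 2 and 3 these numbers were 25 and 25, and 26 and 25. Replicate 2 of 0.1 Se held the lowest signal in 23 of the 26 genes and replicate 3 of 0.1 Se in the other 3. The highest signal was on a 0 Se array in 23 genes, with replicate 3 of 0 Se highest in 11 and replicate 1 in 10.

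**Figure D4:**
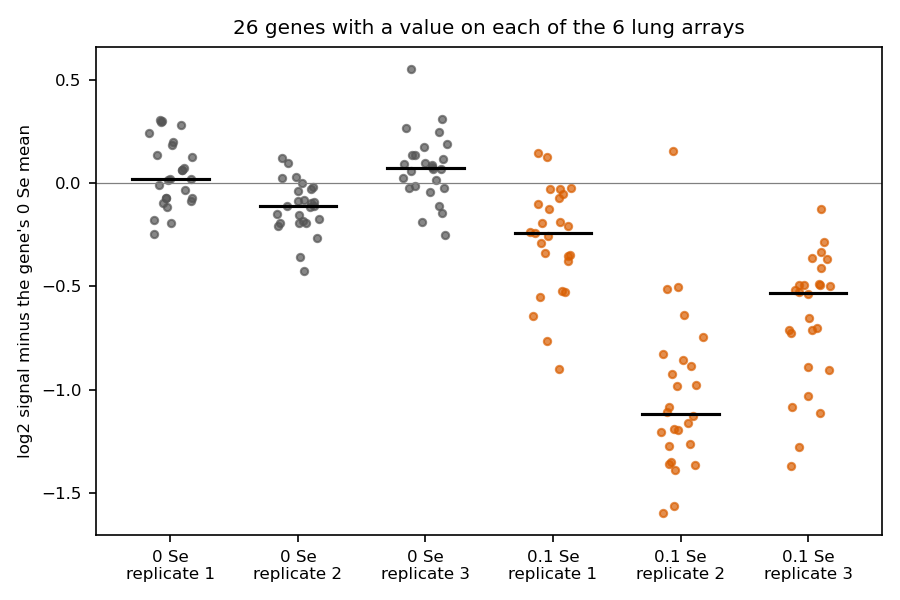
Each point is one of 26 genes, with the log2 signal on an array minus the mean of that gene over the 0 Se lung arrays, and lines are medians over genes. The 0 Se arrays scatter around 0, and the medians of 0.1 Se lie at -0.24, -1.12 and -0.53, with Rfx3 the point at 0.15 on replicate 2.

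Summed over the 26 genes, the linear signal was 18816 to 21222 on the 0 Se arrays and 10655 to 17524 on the 0.1 Se arrays, so the diets did not overlap on this scale. Leaving out an array moved the median over tested genes between -0.84, without replicate 1 of 0.1 Se (26 tested), and -0.33, without replicate 2 of 0.1 Se (34 tested). Without replicate 1 of 0.1 Se, 6 genes passed the adjusted threshold, namely Dynlrb2, Nme5, Ak7, Fam216b, Akap14 and Cdhr3, and 24 were lower at an unadjusted p under 0.05. Without replicate 2 of 0.1 Se none passed and 13 were lower. The direction was kept in all tested genes in both of these fits. Without replicate 3 of 0 Se 33 of 35 lay below 0, and without replicate 3 of 0.1 Se 26 of 27 did.

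Other genes of the motile cilium, listed by function and not used above, lay below 0 in most cases. Of 96 such genes with a probe set, 65 were tested in lung and 59 of these lay below 0, with a median log2 difference of -0.45. At an unadjusted p under 0.05, 32 (49.2%) were lower and none was higher, and none passed the adjusted threshold. Of all probe sets tested in lung, 52.1% lay below 0, and 4.12% were lower and 3.55% higher at that p. Cfap54 of the central apparatus differed by -0.84 ± 0.17 (limma adjusted p = 0.138), Efcab10 by -1.10 ± 0.25 (adjusted p = 0.218) and the dynein light chain gene Tctex1d4 by -0.76 ± 0.18 (adjusted p = 0.242). Over the 52 of them on the 6 lung arrays, replicate 2 of 0.1 Se was the lowest array in 37.

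The upstream programme of multiciliated cells and the general ciliogenesis genes had smaller values. Of 9 programme genes tested, 2 (22.2%) were lower at an unadjusted p under 0.05, against 4.12% of all probe sets. The median log2 difference of the 9 was 0.07. The 2 were Bbof1, a basal body protein (-0.62 ± 0.21, limma adjusted p = 0.466), and Myb, a transcription factor that is not specific to these cells (-0.56 ± 0.23, adjusted p = 0.594, from a probe set ending in _x_at). Rab36, a small GTPase, differed by 0.25 ± 0.21 (adjusted p = 0.843). Deup1, which builds the many centrioles of these cells, was listed on 2 arrays of 0 Se and none of 0.1 Se. Cep152 went the other way, with 1 array of 0 Se and 3 of 0.1 Se, and Trp73 was listed on 1 of each. Of all probe sets listed on some lung arrays, 42.2% were on more of 0 Se. Intraflagellar transport and general ciliogenesis genes serve primary cilia too and were tested in 44 cases, with a median of -0.17. At an unadjusted p under 0.05, 8 (18.2%) were lower and 0 higher, against 4.12% and 3.55% of all probe sets. The smallest p-values there were those of Ift27 (-0.61 ± 0.14, adjusted p = 0.243), Cc2d2a (-0.36 ± 0.11, adjusted p = 0.436) and Odf2 (-0.30 ± 0.11, adjusted p = 0.528).

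Club and secretory cells share the airway lining with ciliated cells, and their genes had lower signals in 0.1 Se too. Of 11 club and secretory cell genes tested, 7 (63.6%) were lower at an unadjusted p under 0.05, against 4.12% of all probe sets. None passed the adjusted threshold, and the median log2 difference was -0.41. Pigr, which carries IgA across the epithelium, differed by -1.15 ± 0.31 (limma adjusted p = 0.337), Lypd2 by -0.61 ± 0.13 with replicate 2 of 0.1 Se blank (adjusted p = 0.218) and Aldh1a7 by -0.32 ± 0.10 (adjusted p = 0.436). Scgb3a1, a secretoglobin of larger airways, had log2 signals of 12.18, 13.22 and 12.91 in 0 Se and 12.05, 6.74 and 10.36 in 0.1 Se, so its replicates in 0.1 Se lay in the same order as those of the ciliated cell genes. Muc5b and Bpifb1, secreted products of airway cells, were each listed on the 3 arrays of 0 Se and on none of 0.1 Se.

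The most abundant club cell markers did not follow that order of arrays. Scgb1a1, the main secretoglobin of club cells, had 15.64, 15.86 and 16.25 in 0 Se and 15.16, 16.24 and 15.67 in 0.1 Se, with replicate 2 the highest of 0.1 Se (-0.23 ± 0.26, limma adjusted p = 0.894). Scgb3a2 differed by -0.43 ± 0.15 (adjusted p = 0.519) and Cbr2 by -0.27 ± 0.17 (adjusted p = 0.786). The summed linear signal of 10 club and secretory genes was 201068 to 268963 in 0 Se and 152072 to 218730 in 0.1 Se, and the diets overlapped.

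Chad, chondroadherin of cartilage, differed by -1.10 ± 0.20 (limma adjusted p = 0.111), with log2 signals of 8.29, 7.84 and 8.19 in 0 Se and 6.99 and 7.02 in 0.1 Se and a blank on replicate 2. The study had listed Chad from these same lung arrays, and also Riiad1 of the other motile cilium genes and Pln of the cardiac genes, so their direction is not independent evidence. The probe set used here for Pln, 1 of 3, differed by -0.49 ± 0.74 (limma adjusted p = 0.92), a smaller fall than the study listed. Dnah7b and Cyp2a4, also listed by the study, had no probe set of a single gene here and enter no count of genes tested. The defining cartilage genes Acan and Col2a1, and Comp, Cnmd and Sox9, were blank on the lung arrays. Of 7 basal airway cell genes 1 was tested, Snai2 (-0.31 ± 0.09, adjusted p = 0.38, also a gene of mesenchymal cells), while Krt14, Krt15, Trp63, Ngfr and Aqp3 were blank on the lung arrays and Krt5 was listed on 1. The part of airway content, which the club, basal and cartilage genes mark, in the lower signals of ciliated cell genes was not tested.

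Alveolar and muscle genes were also examined. None of 11 alveolar type 2 genes was lower at an unadjusted p under 0.05 (median log2 difference -0.17), and 1 of 10 alveolar type 1 genes, Gprc5a, was higher (0.42 ± 0.14, limma adjusted p = 0.46, list median 0.05). Of all probe sets tested in lung, 4.12% were lower and 3.55% higher at that unadjusted p, and 52.1% lay below 0. Of 8 smooth muscle genes 2 were lower, Tagln (-0.23 ± 0.09, adjusted p = 0.557) and Acta2 (-0.31 ± 0.14, adjusted p = 0.636), and all 8 lay below 0 with a median of -0.26. Median levels of smooth muscle genes on the 0.1 Se arrays, relative to the mean over the 6 lung arrays, were 0.16, -0.25 and -0.32, so replicates 2 and 3 were low as for the ciliated cell genes. Cardiac muscle genes, which come from heart or pulmonary vein muscle, lay below 0 in 9 of 9 cases with a median of -0.62, and none passed an unadjusted p under 0.05. Their median levels were 0.77, -1.07 and -0.70 on the 0.1 Se arrays, in the same order as those of the ciliated cell genes, and -1.64, 1.68 and 0.88 on the 0 Se arrays, in another order. Their summed signal ran from 4805 to 38711 in 0 Se and from 5876 to 22323 in 0.1 Se. Of 9 hepatocyte genes 7 were blank on the lung arrays. The part of these cell types in the lower signals of ciliated cell genes was not tested.

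**Figure D5:**
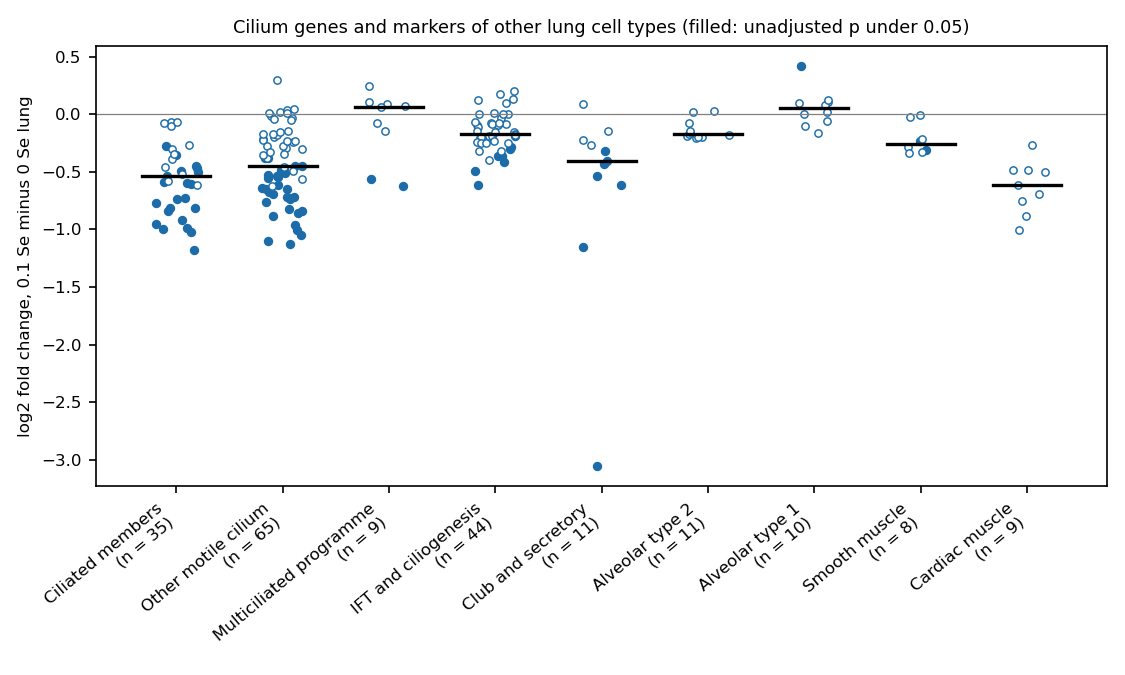
Each point is the log2 fold change (0.1 Se minus 0 Se lung) of a gene tested, by list, filled where the unadjusted limma p was under 0.05, and lines are medians. Medians are -0.53 for the ciliated cell and axoneme genes, -0.45 for other motile cilium genes, -0.41 for club and secretory genes, -0.17 for alveolar type 2 genes and 0.05 for alveolar type 1 genes; the lowest point, at -3.06, is Scgb3a1.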

How the data were processed

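Signals came from the MAS5 algorithm, run by the authors on each array by itself, with absent calls removed (R 2.15.2 with affy 1.36.0, per the submitters' processing notes). They were deposited as log2 values for 29467 probe sets and used without further scaling; 58 control probe sets were left out, and 0 columns lacked a sample. A single gene was annotated to 24504 probe sets (24434 matched by Entrez number) and several genes to 660. Gene names of probe sets ending in _x_at or _s_at are less certain. Spag6 is the gene that newer annotation calls Spag6l.

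A probe set with at least 2 values in each diet was tested by limma 3.58.1 in R 4.3.3 (lmFit, eBayes with a trend) within a tissue, with Benjamini-Hochberg adjustment over all 21655 probe sets in lung or 16575 in liver and a threshold of 0.05. Log2 differences are 0.1 Se minus 0 Se with the SE. The number of arrays limits the precision. The response in lung was to be compared with that in liver as an interaction over the 12 arrays. The scripts were tested on simulated data.

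Genes, lists and tests were chosen with earlier results of these data known, so lists are described by counts and medians and get no p. The genes named with values were those past the threshold, the 14 with the smallest p, the strongest by signal and by p in each role, those on the 6 liver arrays, and up to 3 genes by p or signal in each other list. The others are given by their difference or listed values, and Scgb3a1, Muc5b, Bpifb1, Deup1, Cep152 and Trp73 were added after their values were seen. Alternatives changed the filter, the blanks, the normalization, the offset, the limma settings, the probe set, the array or the test.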

Additional observations from a re-analysis of the deposited data

How the results depend on the processing

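Among 627 values of single genes in lung under alternative settings, 607 kept their direction and side of the threshold, 11 lost the call (Fam216b), 6 gained it and 3 changed sign. The 3 that changed sign were near 0. Some settings, such as the filter and the trend, leave the difference itself unchanged, and the second probe set altered only Dnali1. Part of the 627 values could therefore not change direction. Leaving out 1 array gave -0.16 to 0.063 for Hydin and -0.16 to 0.0025 for Cfap53 (both above 0 without replicate 3 of 0 Se), and -0.19 to 0.065 for Rfx3 (above 0 without replicate 3 of 0.1 Se). In liver it gave -0.012 to 0.081 for Ropn1l, below 0 without replicate 3 of 0.1 Se. The median log2 difference in lung stayed between -0.84 and -0.33.

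The count of genes past the adjusted threshold in lung, 1 as reported, was 0 with the filter on mean signal (15 genes tested, 12 of them lower at an unadjusted p under 0.05), quantile normalization (21 lower), median centring (20 lower), no trend (21 lower) and the methods' t-test (9 lower), and 2 (Fam216b and Akap14) with array weights. With blanks at the lowest value it was 1, Dnah11, whose 0.1 Se lung values were all filled blanks. Fam216b then had a limma adjusted p of 0.0731. Leaving out 1 array gave 0 to 6 calls and 13 to 24 genes lower at an unadjusted p under 0.05. Over its 19 alternatives, Fam216b ran from -1.32 to -0.99 with an adjusted p from 0.0154 to 0.653. The test of lung against liver held 0 genes, except with blanks at the lowest value. There 1 of 41 passed, Dnah11 (-1.26), with liver and 0.1 Se lung levels made only of filled blanks. Its p does not measure the spread of replicates. The causes were not tested.

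Same-numbered lung arrays did not deviate together (correlations 0.05, -0.15 and -0.01), and the main fit used no pairing. With 3 arrays per diet, these values cannot settle whether the numbers pair arrays. With the number as a replicate block the count was 1 and 24 genes were lower. Requiring 4 of 6 lung arrays in place of 6 raised the genes counted as detected from 26 to 36.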
